A study of Sus scrofa with 24 samples.

Results

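The genes described here are 10 smooth muscle contractile genes of the pig gut wall: the actins ACTG2 and ACTA2, the actin organiser LMOD1, the myosin heavy chain MYH11, the myosin kinase MYLK, the thin filament proteins TAGLN and CNN1, the intermediate filament protein DES, and the membrane and calcium regulators PLN and KCNMB1. They were picked by gene symbol from the deposited table of 20674 genes, and all 10 were found and passed the filter on low counts in every fit. Their level was read in each library as a measure of how much muscle RNA a gut sample held. RNA-seq was done on poly(A) RNA from the colon and the ileum of female pigs (Sus scrofa), sows fed 1 of 4 diets from breeding over the 114 days of gestation.

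The 4 diets crossed dietary fibre with N-carbamylglutamate (NCG), a feed additive that promotes arginine synthesis. HN (H+N in the series' design text) held 7.46% crude fibre and 0.05% NCG, HF held 7.46% crude fibre, LN (L+N) held 3.73% crude fibre and 0.05% NCG, and LF held 3.73% crude fibre. Each diet was given to 100 sows, and each of the 8 tissue and diet groups had 3 libraries, numbered 1 to 3, for 24 in all. The labels name no strain and do not state which layers of the wall were taken, whether the 3 libraries of a group came from separate sows, or whether a colon and an ileum library came from the same sow. P-values therefore measure the spread between these libraries, which may be partly technical.

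Gut motility rests on smooth muscle of the muscularis externa, the thick outer muscle coat, and of the thinner muscularis mucosae and the vessel walls. In a smooth muscle cell, calcium entry activates calmodulin and myosin light chain kinase, which phosphorylates myosin so that it pulls on actin filaments, and potassium channels and the calcium pump of the sarcoplasmic reticulum bring the cell back to rest. Enteric actin gamma 2 is the main actin of visceral muscle, whereas actin alpha 2 is also abundant in vascular muscle, pericytes and myofibroblasts. In bulk RNA, fewer muscle cells in a sample and less RNA per muscle cell cannot be told apart.

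Library totals ran from 14843272 to 18575695 counts in colon and from 11951729 to 19896941 in ileum, so that a count of 0 allows a level of up to 0.151 to 0.251 CPM (counts scaled to library size), for counting error only. Of the genes used to check the tissue labels, HOXD10 ran from 14.1 to 121 CPM over the colon libraries and from 0 to 0.2 CPM over the ileum libraries, and APOB ran from 0.13 to 47.7 CPM in colon and from 41.5 to 4715 CPM in ileum. Of the markers of the ileal bile acid transport, FABP6 and SLC10A2 were listed at 0 in 1 and 5 of the 12 ileum libraries. Ileum LN library 3 stood apart: its 10 adipocyte genes summed to 5669 CPM, against 68.2 to 163 CPM in the other ileum libraries, and its 10 endothelial genes to 1498 CPM, against 395 to 635 CPM. Where leaving it out turned the direction of a member in ileum, ended or made a call, or moved a median over the members by over 1.5 times, both values are given. Ileum HN library 2 also differed in composition. Its 13 epithelial genes summed to 1558 CPM, against 4260 to 9899 CPM in the other ileum libraries. Its 11 lymphocyte genes summed to 1873 CPM, against 158 to 1138 CPM.

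The spread between libraries of 1 group was wide in some groups. The share of all counts that fell on the 10 genes ranged more than 10-fold within colon HN, colon LN and ileum LF, and less in the other groups. In colon the share was 8.80%, 1.38% and 0.157% in HN libraries 1, 2 and 3, and 0.154%, 0.226% and 0.229% in the HF libraries. It was 5.66%, 3.34% and 0.146% in the colon LN libraries, and 7.72%, 9.24% and 2.87% in the colon LF libraries. All 3 LF libraries were high and all 3 HF libraries low, whereas the HN and LN groups each held high libraries and 1 low library. In all, the 10 genes took over 1% of the counts in 7 of 12 colon libraries.

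In ileum the share was 0.110%, 0.730% and 0.112% in HN libraries 1, 2 and 3, and 0.135%, 0.179% and 0.171% in the HF libraries. It was 0.0956%, 0.134% and 0.914% in the ileum LN libraries, and 0.212%, 0.932% and 4.24% in the ileum LF libraries. Only ileum LF library 3 exceeded 1%, and 1 library stood high in each of the HN and LN groups. The mean log2 CPM of the 10 genes spanned 5.95 (colon LN 3) to 12.16 (colon LF 2) in colon and 5.74 (ileum LN 1) to 10.74 (ileum LF 3) in ileum.

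**Figure D1:**
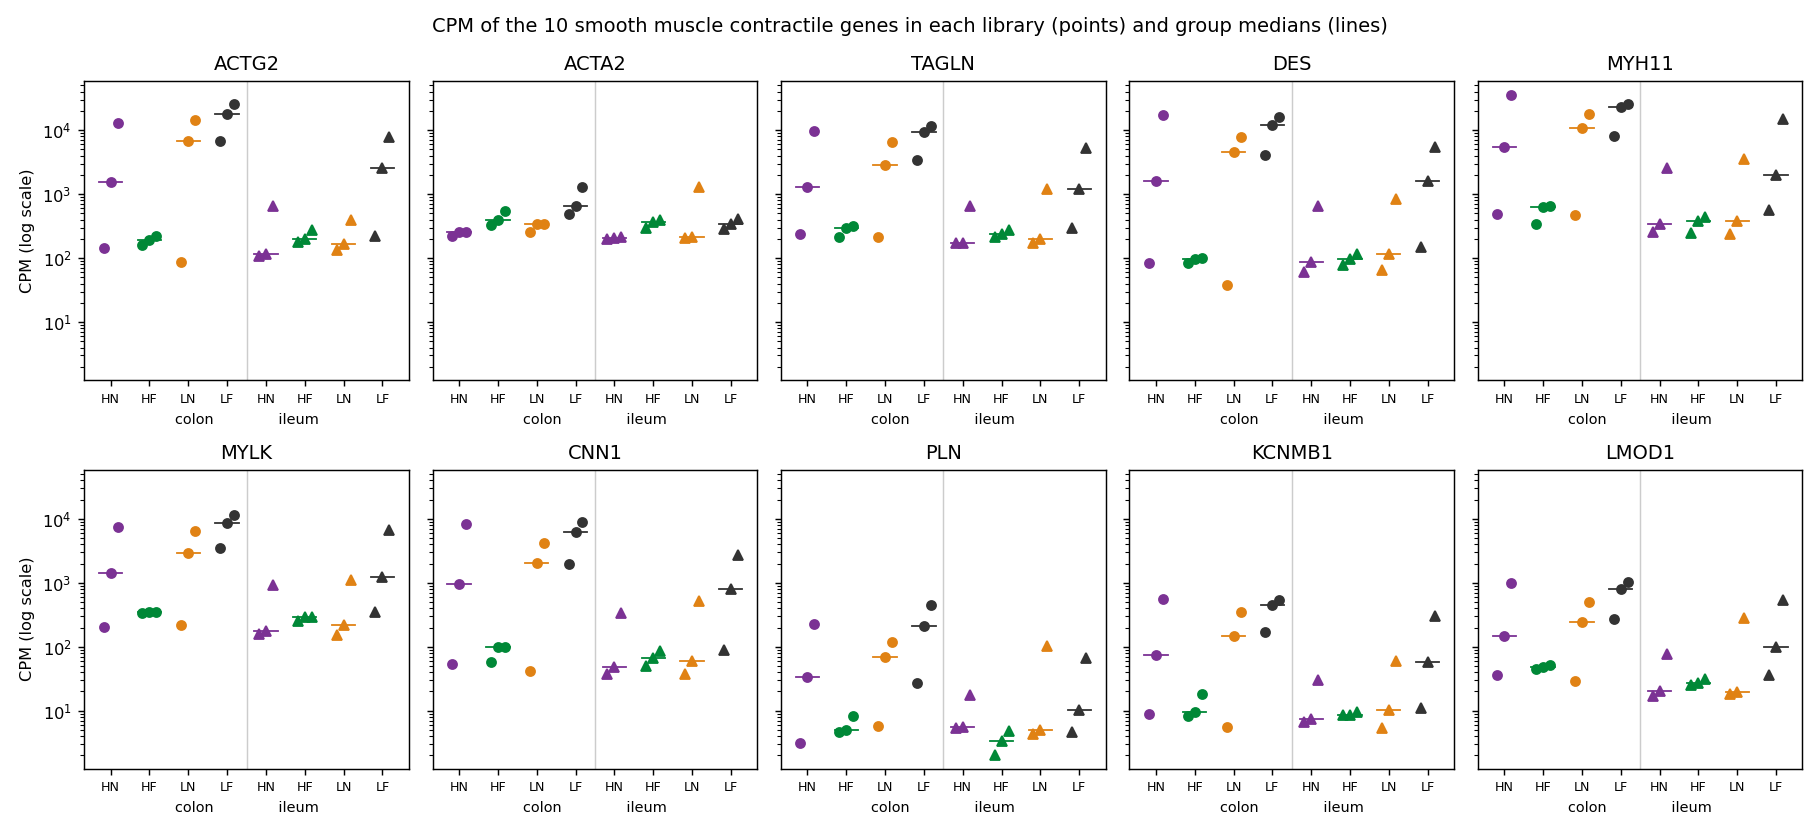
CPM (log scale) of each of the 10 genes in every library, with colon groups (circles) left of ileum groups (triangles), diets in the order HN, HF, LN, LF, 1 point per library and a line at each group's median. Within colon HN and LN single libraries differ by more than 10-fold for 9 genes, while ACTA2 stays between 221 and 1312 CPM in colon.

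The actins differed from each other in how they varied. ACTG2 (chr3:69097366-69121542, minus strand, Sscrofa11.1), the enteric smooth muscle actin, had 12802, 1531 and 142 CPM in colon HN libraries 1, 2 and 3, 158, 191 and 218 CPM with HF, 14256, 6813 and 88.4 CPM with LN, and 18127, 25409 and 6689 CPM with LF. The colon LF libraries lay above all HF libraries, and HN and LN spanned both ranges. In ileum, ACTG2 had 116, 647 and 108 CPM with HN, 196, 181 and 272 CPM with HF, 132, 165 and 388 CPM with LN, and 220, 2527 and 7857 CPM with LF. Ileum LF 1 lay among the HF libraries, and ileum LF 2 and 3 were the only ileum libraries above 647 CPM.

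ACTA2 (chr14:100868145-100886732, minus strand), smooth muscle actin alpha 2, had 221, 260 and 252 CPM in colon HN libraries 1, 2 and 3, 324, 395 and 545 CPM with HF, 341, 341 and 255 CPM with LN, and 643, 1312 and 490 CPM with LF. In ileum it had 215, 204 and 202 CPM with HN, 364, 301 and 391 CPM with HF, 207, 212 and 1306 CPM with LN, and 286, 405 and 336 CPM with LF. Its high ileum value was LN library 3, the library rich in adipocyte and endothelial genes, rather than LF library 3. The highest colon library exceeded the lowest 5.93-fold for ACTA2 and 288-fold for ACTG2. ACTG2, ACTA2 and the striated muscle actins are close paralogs, and how the submitters' counting treated reads that match more than 1 of them is not given in the sources used here, so the split between them is uncertain.

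LMOD1 (chr10:24165293-24194823, minus strand), leiomodin 1, which nucleates actin filaments, had 994, 146 and 36.4 CPM in colon HN libraries, 45.7, 48.1 and 51.1 CPM with HF, 493, 241 and 29.5 CPM with LN, and 802, 1019 and 269 CPM with LF. In ileum it ran from 16.8 to 77.2 CPM with HN, from 25.0 to 31.4 CPM with HF, from 18.5 to 284 CPM with LN and from 35.7 to 531 CPM with LF. The LF libraries were above the HF libraries in both tissues.

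MYH11 (chr3:7002667-7143093, plus strand), the heavy chain of smooth muscle myosin, had 35913, 5483 and 492 CPM in colon HN libraries 1, 2 and 3, 339, 649 and 636 CPM with HF, 17578, 10627 and 468 CPM with LN, and 23279, 25757 and 8144 CPM with LF. In ileum it had 347, 2553 and 257 CPM with HN, 248, 375 and 439 CPM with HF, 235, 376 and 3584 CPM with LN, and 569, 1974 and 14699 CPM with LF. Colon HN 1 was its highest library, colon HN 3 was within the range of the HF libraries, and every LF library of either tissue lay above the HF libraries of that tissue. MYLK (chr13:136509878-136809674, plus strand), the kinase that switches this myosin on, ran in colon from 202 to 7581 CPM with HN, from 332 to 348 CPM with HF, from 221 to 6400 CPM with LN and from 3561 to 11421 CPM with LF. In ileum MYLK ran from 160 to 911 CPM with HN, from 252 to 296 CPM with HF, from 154 to 1116 CPM with LN and from 350.3 to 6793 CPM with LF.

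TAGLN (chr9:44561756-44567385, plus strand), transgelin, which cross-links actin, ran in colon from 238 to 9544 CPM with HN, from 215 to 321 CPM with HF, from 214 to 6527 CPM with LN and from 3464 to 11481 CPM with LF. In ileum it ran from 172 to 641 CPM with HN, from 212 to 273 CPM with HF, from 171 to 1204 CPM with LN and from 298 to 5174 CPM with LF. CNN1 (chr2:70183370-70190756, plus strand), calponin 1, which restrains the actin-activated myosin ATPase, had 8386, 951 and 54.1 CPM in colon HN libraries, 56.8, 97.5 and 99.7 CPM with HF, 4192, 2038 and 41.6 CPM with LN, and 6339, 8832 and 1984 CPM with LF. As for MYH11, the low libraries of the colon HN and LN groups were the same 2, HN 3 and LN 3, and both were below every HF library for CNN1. In ileum CNN1 ran from 38.1 to 341 CPM with HN, from 50.8 to 85.8 CPM with HF, from 37.4 to 522 CPM with LN and from 89.7 to 2677 CPM with LF.

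DES (chr15:121428539-121435426, plus strand), desmin, the intermediate filament of muscle cells, was the member that varied most. It had 17189, 1602 and 84.2 CPM in colon HN libraries 1, 2 and 3, 82.3, 101 and 96.0 CPM with HF, 7949, 4625 and 38.4 CPM with LN, and 12113, 15767 and 4053 CPM with LF. In ileum it had 88.2, 642 and 59.5 CPM with HN, 77.0, 98.1 and 118 CPM with HF, 66.2, 115 and 824 CPM with LN, and 150.2, 1617 and 5480 CPM with LF. The highest library exceeded the lowest 448-fold in colon and 92.0-fold in ileum.

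PLN (chr1:43449354-43458925, minus strand), phospholamban, the inhibitor of the calcium pump of the sarcoplasmic reticulum, was, per length, among the least abundant of the 10. It had 228, 34.2 and 3.09 CPM in colon HN libraries, 5.06, 4.57 and 8.22 CPM with HF, 117, 68.9 and 5.74 CPM with LN, and 212, 449 and 27.6 CPM with LF. In ileum PLN ran from 5.44 to 17.6 CPM with HN, from 2.03 to 4.75 CPM with HF, from 4.29 to 103 CPM with LN and from 4.63 to 67.5 CPM with LF. Ileum LN 3 was its highest ileum library, as for ACTA2, and ileum LF 1 lay within the HF range. KCNMB1 (chr16:53616532-53631197, plus strand), the beta 1 subunit of the calcium-activated BK potassium channel, ran in colon from 9.01 to 552 CPM with HN, from 8.33 to 18.3 CPM with HF, from 5.52 to 344 CPM with LN and from 171 to 548 CPM with LF. In ileum KCNMB1 ran from 6.70 to 30.8 CPM with HN, from 8.45 to 9.50 CPM with HF, from 5.29 to 59.3 CPM with LN and from 11.2 to 303 CPM with LF.

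Levels of different genes were compared per length, as the deposited FPKM, which divides by gene length and library size. ACTG2 had the highest FPKM of the 10 genes in 7 of 12 colon libraries and ACTA2 in the other 5, whereas in ileum ACTG2 led in 3 libraries and ACTA2 in 9. Over the 12 colon libraries the median FPKM was 2806 for ACTG2, 1519 for TAGLN, 1182 for DES, 1047 for MYH11, 931 for CNN1, 255 for MYLK, 251 for ACTA2, 57.3 for LMOD1, 43.8 for PLN and 29.5 for KCNMB1. In ileum the medians were 223 for ACTA2, 173 for TAGLN, 146 for ACTG2, 60.5 for MYH11, 46.9 for CNN1, 45.3 for DES, 32.1 for MYLK, 8.25 for LMOD1, 6.73 for PLN and 2.40 for KCNMB1. For each gene the highest library exceeded the lowest by more than its median differed from that of its neighbours in these orders. The genes were read in the same libraries, however, so some neighbours kept their order in each library. LMOD1 over MYLK, neighbours in the ileum order, ran from 0.198 to 0.643 over the 12 ileum libraries. DES over MYH11, neighbours in the colon order, ran from 0.226 to 1.68 in colon, so their order changed between libraries. KCNMB1 was the lowest of the 10 in 11 of 12 libraries of each tissue.

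The ratio of ACTG2 to ACTA2 FPKM was above 1 in 7 of 12 colon libraries, those with over 1% of counts on the 10 genes. In colon it was 54.8, 5.59 and 0.533 in HN libraries 1, 2 and 3, and 0.461, 0.457 and 0.380 in the HF libraries. It was 39.5, 18.9 and 0.327 in the colon LN libraries, and 26.7, 18.3 and 12.9 in the colon LF libraries. In ileum the ratio was above 1 in HN 2 (3.0), LF 2 (5.91) and LF 3 (22.1), and between 0.281 (LN 3) and 0.738 (LN 2) in the other 9. LN 3 thus had the lowest ratio in ileum, although its mean log2 CPM over the 10 genes, 9.06, was exceeded there only by LF 3. MYH11 over MYLK moved far less, from 1.41 to 6.53 in colon and from 1.36 to 4.43 in ileum, and KCNMB1 over MYH11 ran from 0.0196 to 0.0474 in colon and from 0.0200 to 0.0566 in ileum.

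**Figure D2:**
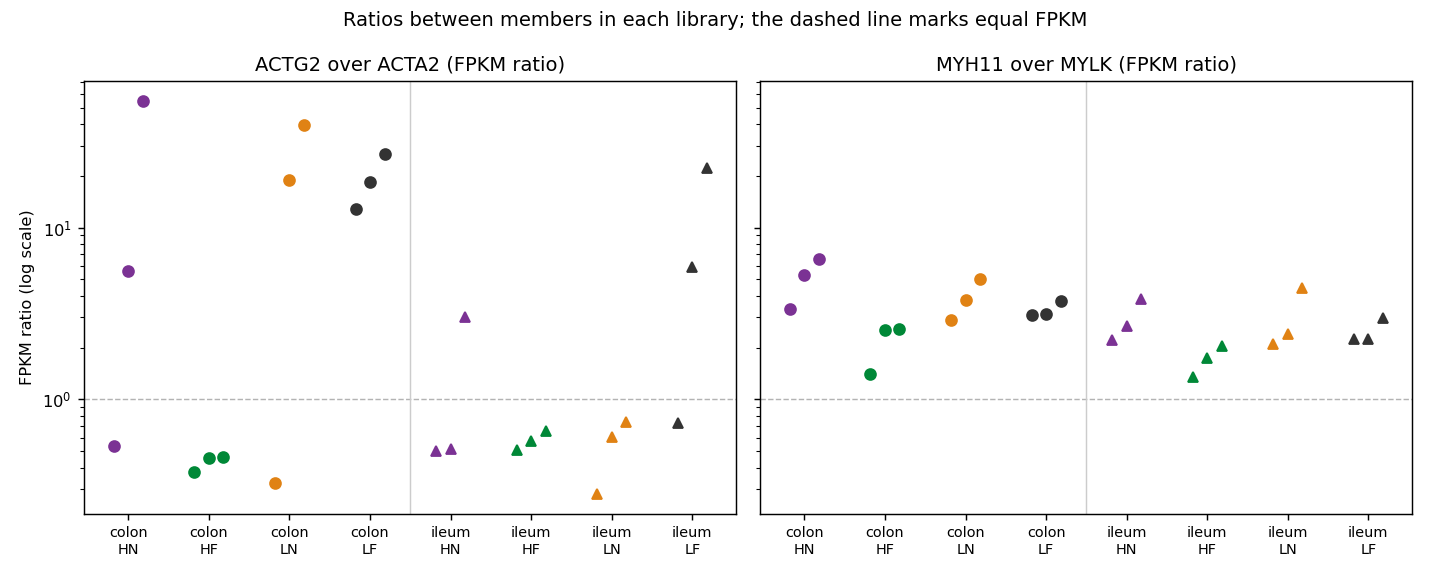
FPKM ratio (log scale) of ACTG2 over ACTA2 (left) and of MYH11 over MYLK (right) in each library, colon groups left of ileum groups, with a dashed line at equal FPKM. ACTG2 over ACTA2 spans 0.327 to 54.8 in colon, and MYH11 over MYLK stays between 1.41 and 6.53.

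The within-group SD of log2 CPM put a number on this spread, set beside that of all 15675 genes that passed the filter over both tissues. In colon it was 2.91 for DES, 2.63 for CNN1, 2.61 for ACTG2, 2.22 for KCNMB1, 2.20 for PLN, 2.17 for MYH11, 1.92 for TAGLN, 1.87 for MYLK, 1.68 for LMOD1 and 0.43 for ACTA2, against a median of 0.49 over all genes. In ileum it was 1.88 for DES, 1.83 for MYH11 and CNN1, 1.71 for PLN, 1.61 for LMOD1 and KCNMB1, 1.57 for ACTG2, 1.49 for MYLK, 1.41 for TAGLN and 0.78 for ACTA2, against a median of 0.46. ACTA2 lay at the 44.4th percentile of all genes in colon and the 74.7th in ileum, and DES at the 99.9th in colon.

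**Figure D3:**
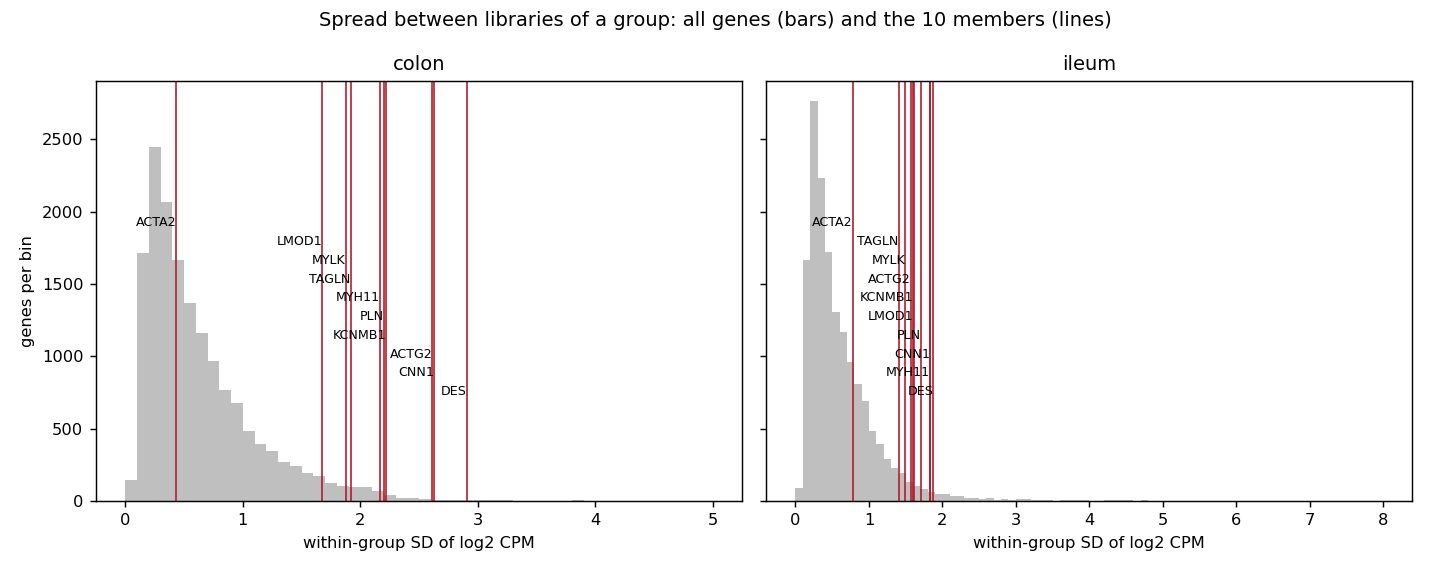
Histogram of the within-group SD of log2 CPM over all genes that passed the filter (bars; genes per bin of SD) in colon and ileum, with a line for each of the 10 members. In colon 9 members lie between 1.68 and 2.91 and ACTA2 lies at 0.43, near the median of all genes.

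Log2 CPM of the 9 members without ACTA2 followed each other from library to library. Over the 12 colon libraries, the Pearson correlation of each pair of these 9 was 0.955 to 0.997, and over the 12 ileum libraries it was 0.657 to 0.997. ACTA2 correlated with the other 9 at 0.319 to 0.440 in colon and 0.284 to 0.611 in ileum. These values are descriptions. The points share their libraries and depth, and the colon libraries fall into a high and a low range that r pools.

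Outside the 10 genes, those whose log2 CPM tracked the mean of the members most closely over the 12 colon libraries, among 13158 genes, were TPM1 (r = 0.999), which encodes a tropomyosin, RBPMS2 (0.997), an RNA-binding protein of visceral muscle, SH3BGR (0.997), MYL9 (0.996), the regulatory light chain of smooth muscle myosin, and MSRB3 (0.996), a methionine sulfoxide reductase. In ileum, among 13216 genes, they were MYL9 (0.996), TPM1 (0.995), TPM2 (0.992), another tropomyosin, PGM5 (0.991), a protein of muscle adhesion sites, and DMPK (0.989), a muscle protein kinase. The most inverse were AKAP1 (-0.952), MINK1 (-0.940), DPAGT1 (-0.935), CNPPD1 (-0.934) and NFS1 (-0.930) in colon, and MCTP2 (-0.889), HHIP (-0.880), ARHGAP27 (-0.872), WDR72 (-0.867) and DENND2D (-0.853) in ileum. TPM1 ran from 215 CPM in colon LN 3 to 13726 CPM in colon LF 2.

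Genes of other cell types also varied between libraries, some in the same direction as the 10 members and some in the opposite direction. Of 14 listed epithelial genes 13 were in the table, and none was at 0 in any library apart from TSPAN8, which was at 0 in 3 colon and 2 ileum libraries. Their summed level ran from 355 to 13826 CPM in colon HN, from 11318 to 15815 CPM in colon HF, from 6718 to 11627 CPM in colon LN and from 174 to 11731 CPM in colon LF. In ileum it ran from 1558 to 8603 CPM with HN, from 5729 to 9899 CPM with HF, from 4260 to 8373 CPM with LN and from 4408 to 7449 CPM with LF. The lowest epithelial sums were in colon LF 2 and HN 1, the libraries with the 2 highest shares of counts on the 10 muscle genes. Ileum did not show the same order. Its lowest sum, 1558 CPM, was in HN 2, which ranked 4 there in mean log2 CPM of the members. LF 3, which ranked 1, held 4408 CPM.

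The 6 listed genes of interstitial cells of Cajal, the pacemaker cells that lie within the muscle coat, were all in the table and at 0 in no library. They summed to 99.9 to 1118 CPM in colon HN, 79.3 to 88.2 CPM in colon HF, 68.4 to 361 CPM in colon LN and 245 to 830 CPM in colon LF. THBS4 alone reached 809 CPM in colon. In ileum they summed to 76.4 to 127 CPM with HN, 69.8 to 88.2 CPM with HF, 69.9 to 108 CPM with LN and 96.0 to 275 CPM with LF. The part of the amount of muscle wall, epithelium or pacemaker tissue in a sample in the differences below was not tested.

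The 10 adipocyte genes, all in the table, summed to 109 to 494 CPM in colon HN, 147 to 387 CPM in colon HF, 152 to 456 CPM in colon LN and 295 to 1376 CPM in colon LF. In ileum they summed to 68.2 to 119 CPM with HN, 102 to 114 CPM with HF, 113 to 5669 CPM with LN and 107 to 163 CPM with LF. ADIPOQ, the adipocyte hormone adiponectin, was at 0 in 1 ileum library and at 1126 CPM in ileum LN 3, and LEP was at 0 in 6 ileum libraries and RETN in 3 colon and 1 ileum libraries.

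Of 12 striated muscle genes 11 were in the table. Their sum ran from 2.65 to 1288 CPM in colon HN, from 3.93 to 6.57 CPM in colon HF, from 2.70 to 557 CPM in colon LN and from 300.4 to 1905 CPM in colon LF. In ileum it ran from 11.8 to 63.1 CPM with HN, from 15.7 to 46.4 CPM with HF, from 2.52 to 20.0 CPM with LN and from 29.7 to 450.5 CPM with LF. The genes at the top of the range were CKM, at up to 1077 CPM in colon, and the actins ACTA1, at up to 486 CPM, and ACTC1, at up to 463 CPM. Of the other 8, MYH2 reached 14.02 CPM, MYH1 10.9 CPM, TNNI2 2.45 CPM and MYH4 0.537 CPM, and MYL1, MYH7, TNNT2 and TNNT3 stayed at or below 0.2 CPM. MYL1 was at 0 in 10 colon and 12 ileum libraries and TNNT3 in 11 of each. The part of striated muscle in the differences below was not tested.

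**Figure D4:**
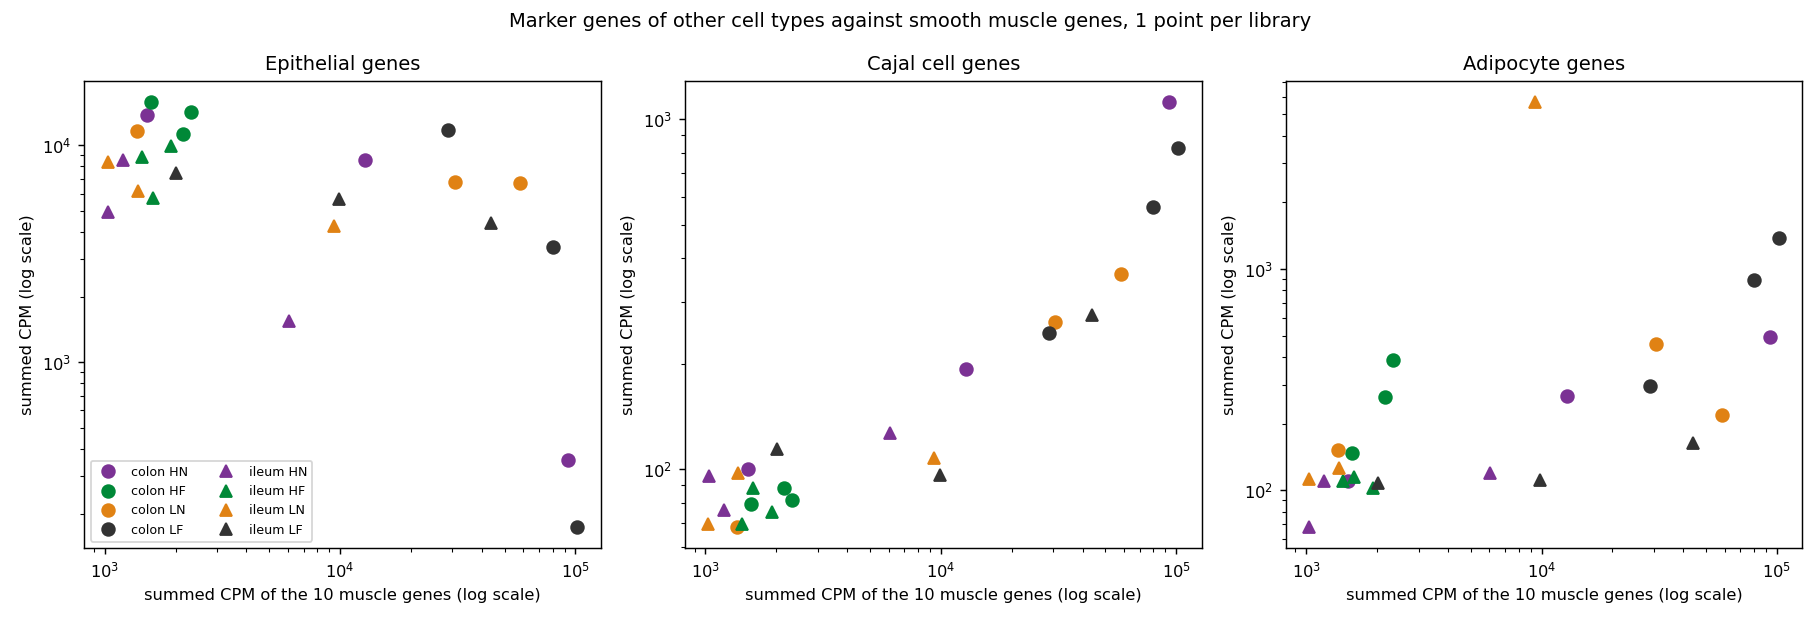
Summed CPM of the epithelial genes (left), Cajal cell genes (middle) and adipocyte genes (right) against the summed CPM of the 10 muscle genes, both on log scales, 1 point per library, circles for colon and triangles for ileum. The 2 libraries with the most muscle RNA, colon LF 2 and HN 1, hold the lowest epithelial sums (174 and 355 CPM), and ileum LN 3 stands alone at 5669 CPM of adipocyte genes.

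The first comparison was of colon with ileum, as the mean of the 4 colon groups against the mean of the 4 ileum groups. Colon libraries had more RNA of 9 of the 10 genes, 3.40-fold to 6.79-fold, and of these ACTG2 differed most. The log2 fold changes, colon over ileum with their SE, were 2.76 ± 0.71 for ACTG2, 2.60 ± 0.77 for CNN1, 2.57 ± 0.80 for DES, 2.21 ± 0.72 for MYH11, 2.17 ± 0.68 for KCNMB1, 2.04 ± 0.61 for TAGLN, 1.97 ± 0.71 for PLN, 1.83 ± 0.61 for MYLK and 1.77 ± 0.61 for LMOD1. ACTA2 had 0.22 ± 0.25. Whether the ACTA2 value differed from that of the other genes was not tested.

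These 9 passed edgeR's quasi-likelihood test with Benjamini-Hochberg adjusted p of 0.00768 (ACTG2) to 0.0458 (PLN), and ACTA2 did not (adjusted p = 0.554). Of all 15675 genes tested, 28.4% passed in either direction and 12.5% were higher in colon, and the median log2 fold change was 2.1 over the members and -0.03 over all genes. The ranges of the groups overlapped for every member, since the colon HF libraries, colon HN 3 and colon LN 3 were as low as ileum ones. The count of 9 rests on single libraries: it was 1 (ACTG2) without colon HN 1, 4 without colon LN 1, and 5 without ileum HN 1, LN 2 or LF 2 in turn. DESeq2 called 9, among 5347 genes, and limma voom 3, LMOD1, MYH11 and TAGLN, among 3809 genes. Without ileum LN 3, ACTA2 passed too, at a log2 fold change of 0.61 (adjusted p = 0.0053).

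**Figure D5:**
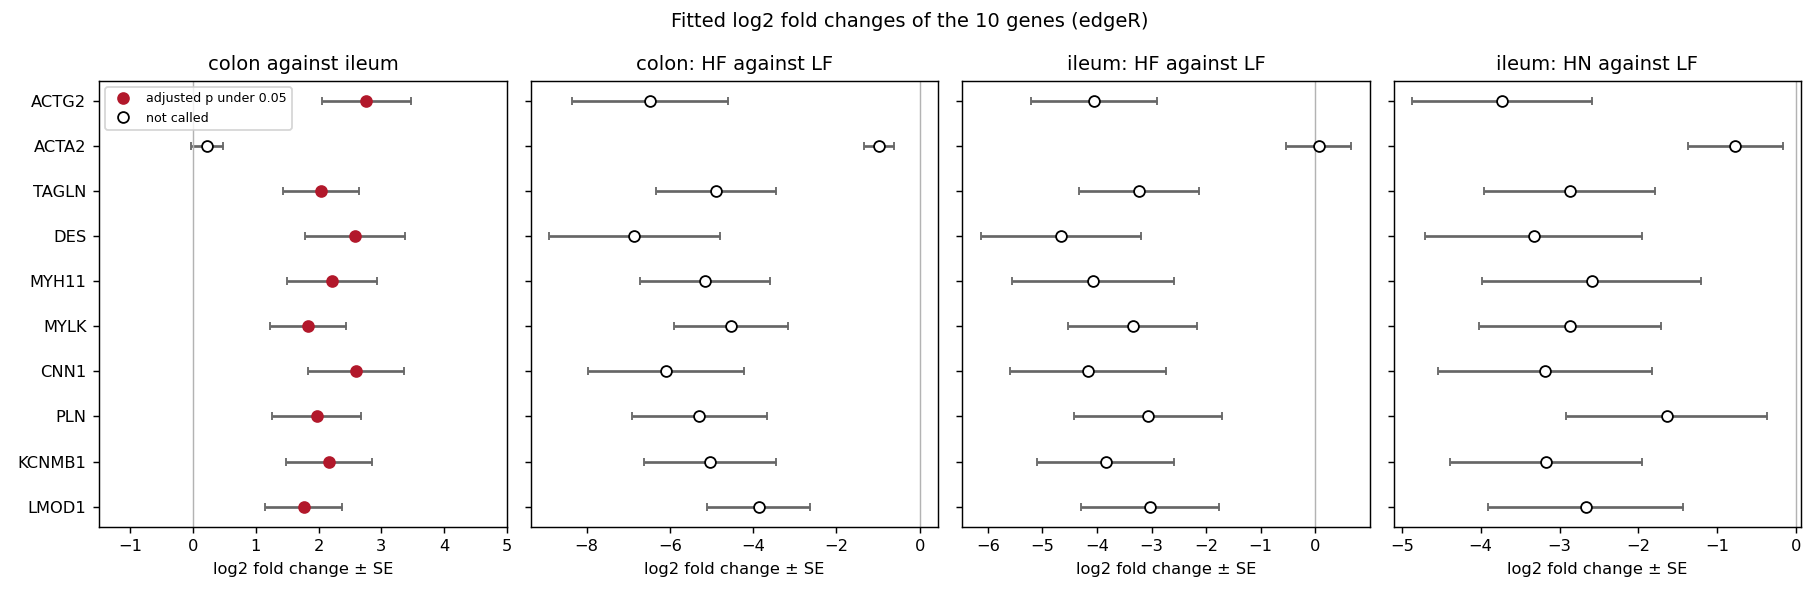
Fitted log2 fold changes (points) ± SE (bars) of the 10 genes for colon against ileum, HF against LF in colon, HF against LF in ileum and HN against LF in ileum; filled points passed an adjusted p of 0.05. In colon against ileum 9 genes are filled at 1.77 to 2.76 and ACTA2 is open at 0.22, and the diet panels hold open points.

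Other genes of the contractile apparatus were read in the same comparison of colon with ileum. The counts for this list and those that follow are from the reported fit alone. They were not recomputed with other tools or with libraries left out. These genes were read in the same libraries as the members, so their counts are not separate evidence. Of 20 further filament, anchoring and heat shock genes tested, 15 were higher in colon and none lower, with a median log2 fold change of 1.69. They included the synemin gene SYNM (2.52), SMTN (2.17), TPM1 (2.14), TPM2 (2.12), HSPB6 (2.09), MYL9 (2.05), the adhesion partner CSRP1 (1.90), the filamin gene FLNA (1.89), CALD1 (1.83), PDLIM3 (1.80), PDLIM7 (1.52), the vinculin gene VCL (1.45), the actinin gene ACTN1 (1.24) and the myosin light chain gene MYL6 (1.04). Among the genes named here, adjusted p was highest for CALD1, at 0.0304.

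Of 16 genes that set myosin light chain phosphorylation, 6 were higher in colon and none lower, with a median of 0.62. They were PPP1R14A (log2 fold change 2.0), an inhibitor of myosin phosphatase, the cyclic GMP-dependent kinase gene PRKG1 (1.89), CAMK2G (0.84), the phosphatase catalytic subunit PPP1CB (0.83), the calmodulin gene CALM2 (0.70) and ARHGEF12 (0.46), an activator of RhoA. Of 14 channels and pumps, 4 were higher and none lower, with a median of 1.13. These were KCNMA1 (2.20), the pore of the BK channel that KCNMB1 modulates, CACNA1C (1.57), the pore of the L-type calcium channel, the calcium pump ATP2B4 (1.5) and the exchanger SLC8A1 (1.18).

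Of 11 tested receptors for contractile agonists out of 13 listed, 6 were higher in colon and none lower, with a median of 0.86. They were the muscarinic receptor CHRM2 (2.71), the tachykinin receptor TACR2 (2.66), the serotonin receptor HTR2B (2.24), the adrenergic receptor ADRA1A (1.82), the prostaglandin receptor PTGER3 (1.53) and the histamine receptor HRH1 (0.86). Of 14 transcription factors of smooth muscle, 6 were higher and 2 lower, with a median of 0.67. HAND1 (4.0), BARX1 (2.69), KLF4 (1.78), FOXF1 (1.0), FOXF2 (0.98) and SRF (0.92) were higher, and GATA6 (-1.03) and MEF2C (-0.83) were lower. To set beside these counts and those that follow, 12.5% of all 15675 genes tested were higher in colon, and 2496 of the 15675 were lower. Counts near these shares do not mark a list. Within the markers of other cells read beside the members, 2 of 6 Cajal cell genes were higher and 1 lower in colon. Of 12 tested epithelial genes 1 was higher and 1 lower, and of 6 tested striated muscle genes 3 were higher and none lower. Of 9 pericyte and vascular muscle genes 2 were higher and none lower, and of 10 endothelial genes 0 passed in either direction by edgeR. Of 10 enteric neuron genes 3 and of 8 glial genes 4 were higher, with none lower, as were 4 of 10 fibroblast genes and 1 of 4 tested mesothelial genes. Of 10 adipocyte genes 2 were higher and 2 lower, and of 11 lymphocyte genes none was higher and 4 were lower. The lists that check the tissue labels had 9 of 10 tested colon genes higher and 7 of 8 ileum genes lower in colon.

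The widest diet difference was HF against LF in colon, with 35.6-fold less MYH11 and 116-fold less DES by the fit, but no member passed the test. The log2 fold changes, HF over LF, were -6.86 ± 2.05 for DES, -6.49 ± 1.87 for ACTG2, -6.10 ± 1.87 for CNN1, -5.29 ± 1.63 for PLN, -5.16 ± 1.56 for MYH11, -5.03 ± 1.59 for KCNMB1, -4.89 ± 1.44 for TAGLN, -4.54 ± 1.36 for MYLK, -3.87 ± 1.24 for LMOD1 and -0.97 ± 0.36 for ACTA2. The median was -5.09 over the members and -0.01 over all genes. For 9 members, all but ACTA2, every HF library lay below every LF library, as did 18.2% of all 15675 genes.

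By edgeR's quasi-likelihood test 0 of the 10 members and 0.0% of 15075 genes passed for HF against LF in colon, with adjusted p of 0.205 to 0.206 for the members. At an unadjusted p under 0.05 there were 10 members, among 3071 of 15075 genes. DESeq2 called 9 lower, among 1053 genes, limma voom called 0, and edgeR fitted to the 6 HF and LF libraries alone called 8 lower, among 288 genes. The epithelial genes moved with this contrast: all 12 tested were positive, HF over LF, with a median of 1.40, and 5 of 6 Cajal cell genes were negative with a median of -2.01. All 9 tested adipocyte genes (median -1.63) and all 10 fibroblast genes (-0.90) were negative too, and all 11 lymphocyte genes were positive (1.16). The part of sampled wall layers in the muscle gene differences was not tested.

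With NCG added the colon groups were mixed. For HN against LF in colon, all 10 log2 fold changes were negative, with a median of -1.01, from -0.45 for MYH11 to -1.80 ± 1.52 for ACTG2. ACTA2, with a narrow spread between libraries, had -1.74 ± 0.36. For LN against LF in colon, all 10 were negative as well, with a median of -1.33, from -0.99 for MYH11 to -1.84 ± 1.39 for PLN, and ACTA2 had -1.38 ± 0.36. By edgeR 0 members passed in either comparison, as did 0.0% of genes in both, with 1 member, ACTA2, at an unadjusted p under 0.05 in each, among 1348 genes for HN and 2010 for LN. DESeq2 called the same 1 lower in each, among 212 genes for HN and 653 for LN, and limma voom called 0. Adjusted p by edgeR for ACTA2 was 0.389 for HN and 0.229 for LN. Marker genes of other cells moved with both contrasts: all 9 tested adipocyte genes were negative (median -1.80 for HN and -1.62 for LN), as were all 10 fibroblast genes (-0.64 and -0.80), while all 11 lymphocyte genes (1.07 and 1.64) and 11 of 12 epithelial genes (0.60 and 0.70) were positive. Their part in the result was not tested.

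The averages over both levels of the other factor gave no calls in colon. For the fibre average in colon (HF and HN over LF and LN), the 10 genes ran from -3.52 ± 1.15 for ACTG2 to -0.67 ± 0.25 for ACTA2 with a median of -2.34, and for the NCG average (HN and LN over HF and LF) from 2.38 ± 1.18 for DES to -1.07 ± 0.25 for ACTA2 with a median of 1.33. By edgeR 0 members and 0.0% of genes passed in either, at adjusted p of 0.836 for the fibre average and at least 0.217 for the NCG average. Unadjusted p was under 0.05 for 9 members in the fibre average, among 692 genes, and for 1, ACTA2, in the NCG average, among 1863 genes. DESeq2 called 0 in the fibre average and 1, ACTA2, in the NCG average, among 497 genes, and limma voom 0 in both.

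The interaction in colon, the NCG effect at high fibre minus that at low fibre, was positive for all 10 members, from 0.61 ± 0.50 for ACTA2 to 7.43 ± 2.50 for DES, with a median of 5.54. The HF libraries were uniformly low while HN libraries 1 and 2 were high, and LN and LF both held high libraries. By edgeR 0 members and 0.0% of genes passed, at adjusted p of 0.327 to 0.495, with 9 members at an unadjusted p under 0.05, among 2264 of 15075 genes. DESeq2 called 1, DES, among 67 genes, and limma voom 0.

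In ileum, HF against LF gave negative log2 fold changes for 9 members, from -4.66 ± 1.47 for DES to -3.03 ± 1.26 for LMOD1, and 0.06 ± 0.60 for ACTA2. The median was -3.60 over the members and 0.04 over all genes. Every HF library lay below every LF library for 7 members, TAGLN, DES, MYH11, MYLK, CNN1, KCNMB1 and LMOD1, as did 4.55% of all 15675 genes. For ACTG2 and PLN, ileum LF 1 fell within the range of the HF libraries. In edgeR's test 0 members and 0.0% of 15103 genes passed (adjusted p = 0.99999 for every member), with 9 members at an unadjusted p under 0.05, among 538 genes. DESeq2 called 1, ACTG2, among 12 genes, and limma voom 0. All 12 tested epithelial genes were positive here as well, with a median of 0.31.

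For HN against LF in ileum, all 10 members were negative, from -3.73 ± 1.14 for ACTG2 to -0.77 ± 0.60 for ACTA2, with a median of -2.87. ACTG2 was 13.3-fold lower by the fit with an adjusted p of 0.159, the lowest among the members. None of the 10 passed edgeR's test, against 1.88% of 15103 genes, and 6 members had an unadjusted p under 0.05, among 1985 genes. DESeq2 called 3 lower, ACTG2, TAGLN and KCNMB1, among 914 genes, and limma voom 0. The HN group overlapped LF for each of the 3, since HN 2 lay above LF 1. Here 10 of 12 epithelial genes were negative as well, with a median of -0.41, as were all 10 fibroblast genes (-0.55) and 5 of 6 Cajal cell genes (-0.81), and all 11 lymphocyte genes were positive (0.80). Their part in the result was not tested.

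For LN against LF in ileum, 8 members were negative and 2 positive, with a median of -2.23, from -3.99 ± 1.16 for ACTG2 to 0.77 ± 0.60 for ACTA2. No member passed edgeR's test (0 of 10, against 4.34% of 15103 genes), the lowest adjusted p was 0.0891 for ACTG2, and 2 members had an unadjusted p under 0.05, among 2925 genes. DESeq2 called 1 lower, ACTG2, among 1647 genes, and limma voom 0. No member had every LN library below every LF library, whereas 10.8% of all 15675 genes did. Without LN 3, the ACTA2 value was -0.71 and the PLN value -2.62, both the other way from 0.77 and 0.42 with it, and the median over the members was -4.01. Of the adipocyte genes 8 of 9 were positive (median 3.36) and of the endothelial genes 9 of 10 (0.77), while all 11 lymphocyte genes were negative (-0.87). Their part in the result was not tested.

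The averages in ileum were also without calls. For the fibre average the members ran from -2.56 ± 0.94 for PLN to -0.74 ± 0.43 for ACTA2, with a median of -2.30, and 0 members and 0.0% of genes passed by edgeR (adjusted p = 0.802), with 9 members at an unadjusted p under 0.05, among 794 genes, and 0 by DESeq2 and limma voom. Without LN 3 the fibre average of ACTA2 was 0.00022 and the median -1.21. For the NCG average they ran from -1.83 ± 0.75 for ACTG2 to 0.92 ± 0.90 for PLN, with a median of -0.78, and by edgeR 0 members passed while 5.85% of genes did. There 1 member had an unadjusted p under 0.05, among 3251 genes, and DESeq2 and limma voom called 0. ACTA2 had -0.03 ± 0.42 in the NCG average, and -0.77 with an adjusted p of 0.0153 without LN 3. Without that library PLN turned to -0.60 in the NCG average, and the median was -1.67. The interaction in ileum ran from -1.59 ± 0.85 for ACTA2 to 4.32 ± 1.51 for ACTG2, with a median of 3.01, and 0 members and 0.0% of genes passed by edgeR, with 2 members at an unadjusted p under 0.05, among 672 genes, and 0 by DESeq2 and limma voom. Without LN 3 the median of the interaction was 4.59 and ACTA2 had -0.12. Marker genes of other cells moved with these contrasts too. In the fibre average 8 of 9 adipocyte genes were negative (median -2.01) and all 11 lymphocyte genes positive (0.93). Of the adipocyte genes 8 of 9 were positive in the NCG average (1.86). In the interaction all 12 epithelial genes (-0.78) and all 10 endothelial genes (-0.84) were negative. Their part in the results was not tested.

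The further lists of smooth muscle genes gave no edgeR call in ileum for HN against LF or for the fibre average, 0 of 20 filament genes, 0 of 16 phosphorylation genes, 0 of 14 channels, 0 of 11 receptors and 0 of 13 transcription factors in each. In those comparisons 1.88% and 0.0% of all 15103 genes passed. These lists had calls in other ileum comparisons, named here after their values were seen. ROCK1 and ROCK2 were higher in the NCG average (1.57 and 1.46) and in LN against LF (2.04 and 2.08), 2 of 16 phosphorylation genes in each. NKX2-3 was lower in the NCG average (-0.81), 1 of 13 transcription factors. Over all 15103 genes, 5.85% passed in the NCG average and 4.34% in LN against LF, so these counts alone do not mark the lists. For HN against LF the smallest p of each list belonged to ACTN1 (-1.44) and MYL6 (-1.37), ROCK2 (1.30) and ROCK1 (1.46), which are kinases that raise calcium sensitivity, CACNB2 (-2.51) and KCNMA1 (-2.12), CHRM2 (-2.24) and TACR2 (-1.26), and MYOCD (-2.58), the coactivator of contractile genes, with NKX2-3 (-0.80). For the fibre average they belonged to HSPB8 (-2.03) and PDLIM3 (-1.94), PPP1R14A (-1.75) and PPP1R12B (-1.83), CACNB2 (-1.91) and CAV1 (-1.71), HTR2B (-2.03) and CHRM2 (-1.40), and KLF4 (-0.85) and MYOCD (-1.47). The median of the 20 filament genes was -2.28 for HN against LF and -1.73 for the fibre average, against -0.08 and -0.02 over all genes.

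The diet effects in the 2 tissues were compared directly. The fibre average in colon minus that in ileum ran from -1.67 ± 1.34 for ACTG2 to 0.63 ± 1.20 for LMOD1, and the NCG average in colon minus that in ileum from -1.08 ± 0.51 for ACTA2 to 3.48 ± 1.37 for ACTG2. By edgeR 0 members and 0.0% of 15675 genes passed in either difference (adjusted p = 0.99992 for every member). Unadjusted p was under 0.05 for 0 members in the fibre difference, among 437 genes, and for 2, ACTG2 and ACTA2, in the NCG difference, among 469 genes, and DESeq2 and limma voom called 0 in both.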

How the data were processed

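Poly(A) RNA of 24 gut libraries was sequenced as read pairs. Per the submitters' processing notes, fastp 0.22.0, HISAT2 2.1.0 and HTSeq 0.9.1 were used with build Sscrofa11.1, and their settings, the handling of reads matching several genes and the use of strand are not given in the sources used here. The deposited table holds raw counts per gene, gene length in bases and, computed by the authors, FPKM, which followed counts over length and library total to within a relative 2.1e-07. Gene positions are those of the deposited table, and all 20674 gene IDs matched RefSeq. Libraries were grouped by tissue and title.

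The 10 members and the 18 other gene lists were chosen with earlier results of these data known. Genes were kept with filterByExpr of edgeR 4.0.16 (R 4.3.3), leaving 15103 in ileum, 15075 in colon and 15675 over both. CPM used TMM-scaled totals, and log2 CPM a prior count of 2. The quasi-likelihood F-test of edgeR was fitted per tissue on 4 diet means and, for comparisons of tissues, on 8 group means, with Benjamini-Hochberg adjustment over all genes tested and a threshold of 0.05. The test was checked on simulated counts, drawn gene by gene with the same dispersion in every group. That check does not cover spread that genes share or that differs between groups, as it does for the members. Each SE was derived from this test, as the absolute log2 fold change over the square root of the F statistic. FPKM was used only for levels and ratios between genes. Genes named beyond the 10 were, in each further smooth muscle list, those called in colon against ileum, or the 2 with the smallest p in ileum HN against LF and fibre average, and the 5 most and 5 least correlated with the members' mean. Markers of other cells were chosen for naming after their values were seen.

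Alternatives were DESeq2 1.42.0, limma 3.58.1 (voom), other scaling and prior counts, no filter on low counts, the 2 groups alone, all 24 libraries in 1 fit, a replicate block and each library left out. Replicate numbers were not taken to pair libraries. No 2 libraries of a group agreed within sampling noise. Sequences of these genes were not used here, and 1 called gene of a further list is not reported here.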

Additional observations from a re-analysis of the deposited data

How the results depend on the processing

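Of 117 counts of called members under other settings, 105 were equal to the reported count or within 1.5 times of it. Most of these were counts of 0 that stayed 0, since the reported count was 0 in every comparison but colon against ileum. Of 1030 values of single members, 975 kept their direction and their side of the threshold. No value of a single member in colon against ileum reversed in 310 alternatives, but the number called there was 3 with limma voom, and 1 to 10 when each library was left out in turn. The labels do not say whether replicate numbers pair the libraries, and they were not taken to. This was checked on each library's deviations of log2 CPM from its group mean, over the genes that passed the filter. These deviations correlated at -0.517 to 0.809 between same-numbered libraries of 1 tissue. Between ileum and colon libraries of 1 diet and number, they correlated over 0.1 in 5 of 12 pairs. With a replicate block, 0 members were called in colon against ileum, with the lowest adjusted p at 0.123. DESeq2, which gave no adjusted p for ACTA2 in ileum, called 3 members in ileum HN against LF, 1 each in ileum HF against LF and LN against LF, 9 in colon HF against LF, and 1 each in the colon NCG average, interaction, HN against LF and LN against LF. With only the 2 groups in the fit, 8 were called in colon HF against LF. Counts with each library left out ran from 0 to 1 in the ileum NCG average and in ileum LN against LF, and were 0 in the other diet comparisons. Library totals with no scaling factor, and leaving out ileum LF 3 and LN 3 together, were chosen after seeing the data, and without both libraries 1 member was called in the ileum NCG average. Without both, log2 fold changes reversed to 0.012 (ACTA2, fibre average), 0.35 (PLN, HN against LF), -0.69 (ACTA2, LN against LF) and -0.63 (PLN, LN against LF) in ileum. The mean log2 scaling factor differed between the sides by 0.12 in colon LN against LF and 0.15 in ileum HN against LF. It differed by less than 0.1 in the other comparisons of groups and averages. The fitted log2 fold changes did not all shift alike without the factors. In colon against ileum, ACTG2 went from 2.76 to 2.72 and ACTA2 from 0.218 to 0.224. With no scaling factor ACTA2 reversed to 0.048 in the ileum NCG average, and with only 2 groups to -0.0087 in ileum HF against LF. In the colon NCG average, MYLK reversed to -0.094 and LMOD1 to -0.058 with voom, and with the replicate block MYLK reversed to -0.086, PLN to -0.093 and LMOD1 to -0.10. With each library left out, the log2 fold changes that reversed ran, for NCG average in ileum ACTA2 -0.77 to 0.18, PLN -0.60 to 1.91, MYH11 -1.41 to 0.83, KCNMB1 -1.69 to 0.13 and LMOD1 -1.61 to 0.56, for HF against LF in ileum ACTA2 -0.071 to 0.18, for fibre average in ileum ACTA2 -0.94 to 0.00022, for LN against LF in ileum ACTA2 -0.71 to 1.17, PLN -2.62 to 2.40, MYH11 -4.29 to 0.19 and LMOD1 -3.58 to 0.75, for fibre by NCG interaction in ileum PLN -0.98 to 4.04 and LMOD1 -0.38 to 3.95, for HN against LF in ileum PLN -2.40 to 0.35, for NCG average in colon MYLK -0.0093 to 1.22, PLN -0.080 to 1.49 and LMOD1 -0.25 to 1.06, and for HN against LF in colon MYH11 -2.66 to 0.11. The cause of these reversals was not tested. The 3 libraries of a group limit the diet comparisons, since they differ widely in muscle RNA. Depth limits the members little: the lowest level, 2.03 CPM for PLN in ileum HF 1, lies above the 0.251 CPM that a count of 0 allows at most.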
